A study of Rattus norvegicus with 20 samples.

Results

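The postsynaptic density scaffold genes Dlg1, Dlg2, Dlg3, Dlg4, Dlgap1, Dlgap2, Dlgap3, Shank1, Shank2 and Shank3 were followed in amygdala tissue (central nucleus) from rats of an alcohol-preferring line. They were chosen by symbol, as every probe set that the array annotation assigns to exactly 1 of the 10 names, and they are 10 of the 14217 genes named in the table. Together they have 24 probe sets, of which 17 passed the filter on low values and 7 did not. Each gene is described first by its main probe set, the one with the highest mean over all 20 arrays, and the other probe sets are set beside it. Expression was measured on Affymetrix rat arrays, 1 array per animal, in 10 rats that had access to ethanol at 15% and 30% during adolescence and in 10 rats that had water only. All animals were of the alcohol-preferring (P) line, which was bred for high ethanol intake, so the water animals carry the same selected background and no non-preferring line was compared. Age at tissue collection and the amount drunk are not stated in the labels. Ethanol intake itself was therefore not related to any gene.

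The excitatory postsynaptic density is a layered protein network beneath the synaptic membrane. Dlg proteins are membrane-associated guanylate kinases whose PDZ domains hold glutamate receptors, potassium channels and adhesion molecules at the membrane. Their guanylate kinase-like domain binds Dlgap proteins, also called SAPAP or GKAP, which in turn bind the PDZ domain of the deeper Shank proteins. Shank proteins connect through Homer and cortactin to metabotropic receptors and the actin cytoskeleton. In the central amygdala, most neurons are GABAergic and receive glutamatergic input from the basolateral amygdala, cortex and thalamus.

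The tissue label was set against marker genes. Of 11 central amygdala markers with a probe set, 10 passed the filter and 1, Calcrl, did not, and their mean level ranged from 10.32 to 11.07 in ethanol animals and from 10.10 to 11.03 in water animals. The cortical and basolateral excitatory markers had 8 measured members, of which Tbr1 and Emx1 were below the filter. Their mean level ranged from 7.86 to 9.47 and from 7.75 to 9.51, respectively, so it varied between animals in both groups. All 9 measured striatal medium spiny markers also passed, at 9.69 to 11.02 and 9.81 to 10.92, so the markers do not set the central nucleus apart from striatum. The choroid plexus and ependyma score ranged from 6.15 to 10.77 in ethanol and from 6.48 to 11.25 in water animals, a difference of means of -1.19. How much neighbouring tissue each sample held was not tested. In bulk tissue of this kind, fewer cells of a type and less RNA per cell cannot be told apart. Correlations between arrays over all probe sets ranged from 0.977 to 0.997. Ethanol animal 5 and water animals 15 and 18 had a lower mean correlation with the other arrays than the rest, below 0.9898, and were kept.

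RefSeq entries for the bases before the transcription start were found for 6 of the 10 genes, in 7 windows of assembly GRCr8. Those of Dlg4 and Shank3 are shown because this pair followed each other closely across animals, and that of Dlg1 because Dlg1 had correlations below 0 with both. Neither of these 2 correlations passed (r = -0.370 and -0.167, adjusted permutation p = 0.229 and 0.665). With the mean of all probe sets of each gene they were 0.192 and -0.268. Each window holds the 250 bases before the start, written 5′ to 3′ on the gene's strand, and capitals mark matches on either strand to CCAAT (the CCAAT box), to GGGCGG (the GC box) or to CANNTG (the E-box).
Dlg4, chr10:55239534-55239783, plus strand: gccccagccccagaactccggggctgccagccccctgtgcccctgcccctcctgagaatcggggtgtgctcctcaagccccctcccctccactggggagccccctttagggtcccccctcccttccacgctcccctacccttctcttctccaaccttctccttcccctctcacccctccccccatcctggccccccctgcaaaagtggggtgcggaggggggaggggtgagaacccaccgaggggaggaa
Shank3, chr7:122448073-122448322, plus strand: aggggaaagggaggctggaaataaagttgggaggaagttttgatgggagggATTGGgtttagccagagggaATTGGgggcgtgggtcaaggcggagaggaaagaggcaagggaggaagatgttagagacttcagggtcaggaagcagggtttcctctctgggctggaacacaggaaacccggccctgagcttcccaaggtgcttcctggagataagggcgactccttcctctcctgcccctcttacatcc
Dlg1, chr11:82607798-82608047, minus strand: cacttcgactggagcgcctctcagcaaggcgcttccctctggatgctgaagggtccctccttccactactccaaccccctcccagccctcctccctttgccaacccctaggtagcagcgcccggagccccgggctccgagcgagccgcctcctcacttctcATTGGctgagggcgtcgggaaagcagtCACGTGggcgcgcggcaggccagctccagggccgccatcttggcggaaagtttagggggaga
The Dlg4 window was 69.2% G and C with 5 CG pairs, the Shank3 window 56.0% with 4 and the Dlg1 window 66.4% with 17, against medians of 51.2% and 5 over 33469 windows of the same length. The motifs searched on both strands were CCAAT for the CCAAT box, GGGCGG for the GC box, CANNTG for the E-box, TGACG for the cAMP response half-site, TATAAA for the TATA box and the MEF2 core, and the Dlg4 window held none. The Shank3 window held 2 matches to CCAAT, with first bases at -199 and -179 from the start. The Dlg1 window held 1 match to CCAAT at -89 and 1 to CANNTG at -62. These letters are common: 34% of all windows held CCAAT, 30.5% GGGCGG, 65.5% CANNTG, 18.2% TGACG, 12.9% TATAAA and 3.41% the MEF2 core. A match is a description of the sequence alone.

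No scaffold gene differed between ethanol and water animals at an adjusted p of 0.05 (limma with Benjamini-Hochberg adjustment over the 18625 probe sets kept, two-sided). Of the 17 member probe sets kept, 0 passed, against 0.0215% of all probe sets tested, or 4. At an unadjusted p under 0.05, 2 of the 17 were higher and 0 lower in ethanol animals, where 7.37% of all probe sets were higher and 5.48% lower. In 0 of the 24 did the groups fail to overlap, against 0.0268% of all probe sets. All levels and differences below are on the log2 scale of the deposited values, and a level is not compared between probe sets, since each has its own probes. The plot of levels by animal shows the overlap of the groups for every gene.

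**Figure D1:**
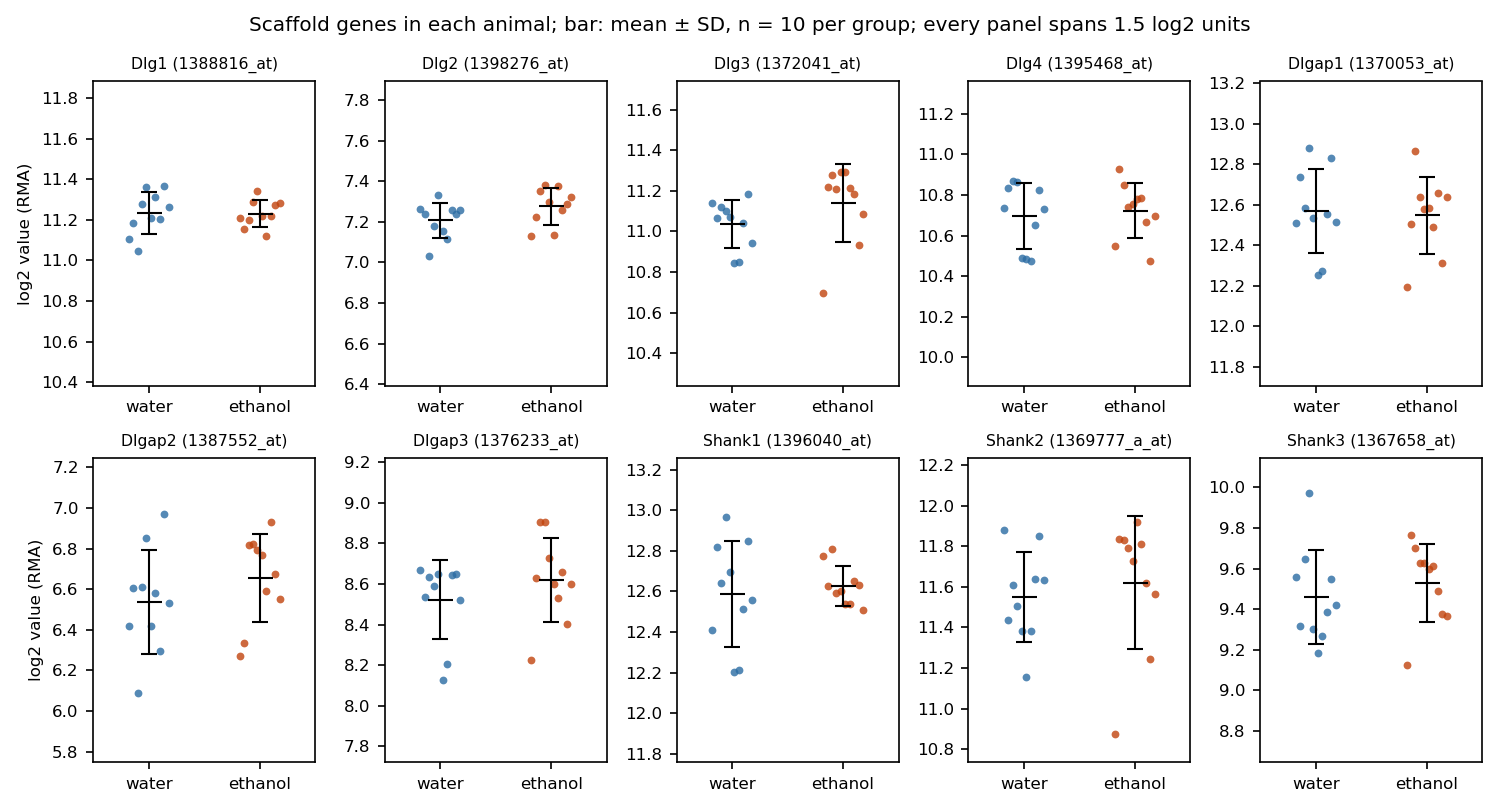
Log2 level (y axis) of the main probe set of each of the 10 scaffold genes in every animal, with 1 point per animal, water in blue and ethanol in orange, and bars for mean ± SD (n = 10 per group). Each panel spans the same number of log2 units, and the groups overlap in every panel; the lowest ethanol point of Dlg3, at 10.70, and of Shank2, at 10.87, is the same animal.

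Among the Dlg genes, Dlg3 had the largest mean difference of the main probe sets. Dlg3 encodes SAP102, a scaffold that is prominent in NMDA receptor trafficking early in development. Its main probe set (1372041_at) ranged from 10.70 to 11.30 with a median of 11.21 in ethanol animals, and from 10.84 to 11.18 with a median of 11.07 in water animals. In 7 of 10 ethanol animals the level was above the highest water animal, while ethanol animal 1 was below the lowest water animal. The mean was 11.14 ± 0.19 (SD, n = 10) against 11.04 ± 0.12 (SD, n = 10), a difference of 0.10 (SE 0.069, 95% interval -0.039 to 0.25; limma adjusted p = 0.516). Without ethanol animal 1 the difference was 0.15, and without water animal 17, the lowest of its group, it was 0.083.

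Dlg4 encodes PSD-95, the most abundant scaffold of the mature excitatory synapse. Its main probe set (1395468_at) ranged from 10.48 to 10.93 with a median of 10.75 in ethanol animals and from 10.48 to 10.87 with a median of 10.73 in water animals. Both groups thus covered almost the same range. The difference of the means was 0.026 (SE 0.065, 95% interval -0.11 to 0.16; limma adjusted p = 0.891).

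Dlg2 encodes PSD-93, a close relative of PSD-95 that also clusters receptors and potassium channels. Its 1 probe set (1398276_at) ranged from 7.13 to 7.38 with a median of 7.29 in ethanol animals, and from 7.03 to 7.33 with a median of 7.24 in water animals. It was the member probe set just above the filter, with a mean of 7.24 over all arrays against a limit of 7.14, and the highest mean left out was 7.02, of the Dlgap1 probe set 1388057_a_at. In 8 of 10 ethanol animals the level exceeded the mean of the water group, and the difference was 0.068 (SE 0.043, 95% interval -0.021 to 0.16; limma adjusted p = 0.493).

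Dlg1 encodes SAP97, which traffics AMPA receptors and is also found outside synapses, in epithelial and glial cells. Its main probe set (1388816_at) ranged from 11.12 to 11.34 with a median of 11.22 in ethanol animals, and from 11.04 to 11.37 with a median of 11.24 in water animals. The ethanol animals lay within the water range. The difference was -0.0023 (SE 0.043, 95% interval -0.091 to 0.086; limma adjusted p = 0.988).

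The Dlgap genes encode the middle layer, which links the Dlg proteins to the Shank proteins. Dlgap1 (1370053_at) ranged from 12.19 to 12.86 with a median of 12.58 in ethanol animals, and from 12.26 to 12.88 with a median of 12.55 in water animals. Here too the groups covered nearly the same range, with a difference of -0.020 (SE 0.084, 95% interval -0.20 to 0.16; limma adjusted p = 0.939). Dlgap3, whose loss in mice is known for compulsive grooming and altered striatal synapses, ranged on 1376233_at from 8.23 to 8.91 with a median of 8.61 in ethanol animals and from 8.13 to 8.67 with a median of 8.61 in water animals. In 3 ethanol animals it lay above the highest water animal, and the difference was 0.096 (SE 0.086, 95% interval -0.083 to 0.27; limma adjusted p = 0.641). Dlgap2 has 1 probe set (1387552_at), which did not pass the filter. It ranged from 6.27 to 6.93 with a median of 6.72 in ethanol animals and from 6.09 to 6.97 with a median of 6.56 in water animals. With all probe sets fitted, the Dlgap2 difference was 0.12 (SE 0.10; limma adjusted p = 0.700).

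The Shank genes encode the deep layer. Shank1 (1396040_at) ranged from 12.51 to 12.81 with a median of 12.61 in ethanol animals, and from 12.20 to 12.97 with a median of 12.60 in water animals. The ethanol animals all lay within the water range, and the SD was 0.098 in ethanol and 0.26 in water animals (n = 10 each), a difference in spread that was not tested. The difference of the Shank1 means was 0.041 (SE 0.084, 95% interval -0.13 to 0.22; limma adjusted p = 0.863).

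Shank2 (1369777_a_at) ranged from 10.87 to 11.92 with a median of 11.76 in ethanol animals, and from 11.16 to 11.88 with a median of 11.56 in water animals. It had the widest interval of the main probe sets, with a difference of 0.073 (SE 0.12, 95% interval -0.17 to 0.32; limma adjusted p = 0.813). Leaving out ethanol animal 1, the lowest of all 20, raised the Shank2 difference to 0.16. Leaving out water animal 17, the lowest of its group, lowered it to 0.029. Shank3, a gene whose haploinsufficiency is known to cause Phelan-McDermid syndrome, ranged on 1367658_at from 9.13 to 9.77 with a median of 9.61 in ethanol animals and from 9.18 to 9.97 with a median of 9.40 in water animals. Shank3 exceeded the mean of the water group in 7 of 10 ethanol animals, with a difference of 0.069 (SE 0.090, 95% interval -0.12 to 0.26; limma adjusted p = 0.764).

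Across the 10 main probe sets, 8 differences were above 0 and 2 below. The median of the 10 differences was 0.069 on the log2 scale, beside 0.013 over all 10159 genes tested, of which 56.7% were above 0. In fold terms the ethanol over water estimates ran from 0.986 for Dlgap1 to 1.09 for Dlgap2, and the intervals of both included 1 (0.873 to 1.11 and 0.940 to 1.25). When the myelin score was added as a covariate, the median of the member differences was -0.026.

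The order of the samples in the series falls into 3 runs that no label names, with 4, 4 and 2 arrays per group. Ethanol minus water of the main probe set differed in sign between these runs for every gene but Dlg2, which had 0.093, 0.051 and 0.055. In the first run 4 of the 10 main probe sets were higher in ethanol animals, with a median difference of -0.0078. In the second run 9 of 10 were higher, with a median of 0.22, and Dlg1 was the 1 gene that was not. In the last run 1 of 10 was higher, Dlg2, with a median of -0.12. Shank2 showed the widest swing, with -0.027, 0.38 and -0.34 in the 3 runs, and Dlg3 gave -0.0070, 0.30 and -0.055. What the runs stand for is unknown. With run as a block in the fit, which leaves the differences as they are because each run holds both groups in equal number, 0 member probe sets passed (2 of 17 at an unadjusted p under 0.05; Dlg3 limma adjusted p = 0.517).

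Several animals were low across many of the scaffold genes at once. Ethanol animal 1 had the lowest level of its group for 7 of the 10 main probe sets (Dlg2, Dlg3, Dlgap1, Dlgap2, Dlgap3, Shank2 and Shank3). Water animal 17 had the lowest level of its group for 6 (Dlg3, Dlgap1, Dlgap3, Shank1, Shank2 and Shank3). Water animal 14 was lowest for Dlg1, Dlg2 and Dlgap2, and highest for Dlg4. The myelin score, the mean of the 11 measured of 13 listed oligodendrocyte markers, was the highest of the ethanol group in ethanol animal 1, at 12.89, and stood at 13.10 in water animal 17.

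Other probe sets of the same genes did not all follow the main one. The plot of differences for all 24 probe sets shows 19 above 0 and 5 below. For Dlg3, 1388280_a_at ranged from 7.03 to 7.64 with a median of 7.46 in ethanol animals and from 6.93 to 7.57 with a median of 7.18 in water animals. Its difference was 0.24 (SE 0.079; limma p = 0.00574, adjusted p = 0.284), and 9 of 10 ethanol animals exceeded the mean of the water group. For Dlg4, 1371183_a_at ranged from 8.59 to 9.19 with a median of 8.80 in ethanol animals and from 7.99 to 9.03 with a median of 8.63 in water animals. Its difference was also 0.24 (SE 0.10; limma p = 0.0322, adjusted p = 0.357), where the main Dlg4 probe set gave 0.026. Of the 17 probe sets that passed the filter, these 2 had an unadjusted p under 0.05, and neither passed the adjusted threshold. The second Dlgap3 probe set, 1370533_at, was below the filter. It ranged from 6.77 to 7.13 with a median of 6.93 in ethanol animals and from 6.53 to 6.88 with a median of 6.77 in water animals. All 10 ethanol animals were above the water mean and 7 above the highest water animal, with a difference of 0.20 (SE 0.054; limma p = 0.00144, adjusted p = 0.295 with all probe sets fitted). In the other direction, the Shank1 probe set 1387192_at gave -0.11 (SE 0.058; limma adjusted p = 0.427), with 9 of 10 ethanol animals below the water mean.

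**Figure D2:**
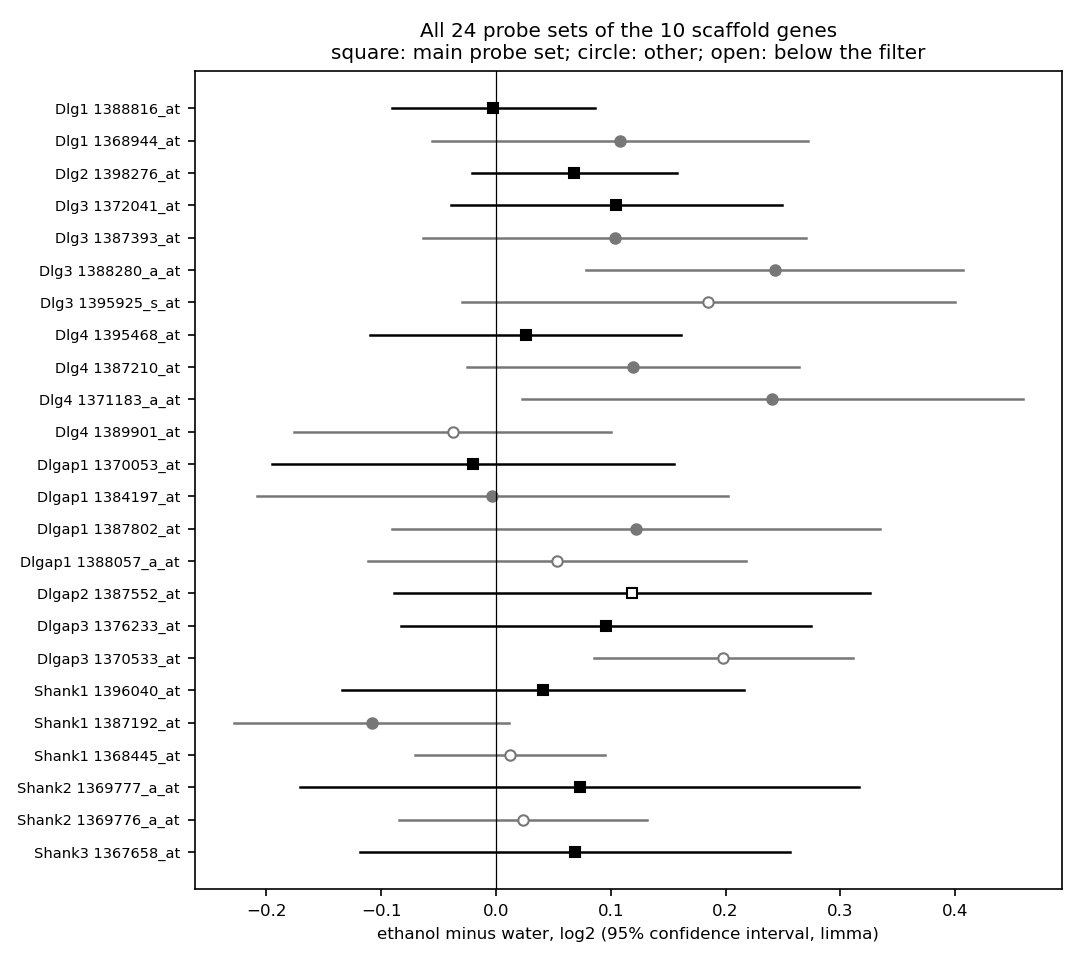
Ethanol minus water difference on the log2 scale (x axis) for each of the 24 probe sets of the 10 scaffold genes, with its 95% confidence interval from limma; squares are main probe sets, circles the others, and open symbols did not pass the filter. The intervals of Dlg3 1388280_a_at, Dlg4 1371183_a_at and Dlgap3 1370533_at do not include 0, and 0 of the 17 tested passed an adjusted p of 0.05.

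How far probe sets of a gene tracked each other over animals also varied. After the group means were subtracted, the 4 Dlgap1 probe sets correlated with each other at r = 0.539 to 0.787 over 20 animals. The main Dlg3 probe set correlated with the 3 others at 0.202 to 0.558, while those 3 correlated among themselves at 0.702 to 0.808. The main Dlg4 probe set correlated at 0.407 with 1387210_at, at 0.357 with 1371183_a_at and at -0.425 with 1389901_at, the last of which was below the filter. The Dlgap3 pair gave 0.180, the Shank2 pair 0.573 and the Dlg1 pair 0.516. Shank1 gave 0.349, 0.183 and -0.030 for its 3 pairs. These values are a description, and probe sets of a gene can bind different transcript ends or isoforms.

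Many of the scaffold genes varied together between animals of the same group. Over the 20 animals, after each group's mean was subtracted, 17 of the 45 gene pairs had a Pearson r past an adjusted p of 0.05 (two-sided permutation test of 100000 resamples within groups, Benjamini-Hochberg over 45 pairs), and all 17 were positive. At an unadjusted p under 0.05 there were 21 pairs. By Spearman's coefficient 13 pairs passed an adjusted p of 0.05, of which 11 were among the 17. The median r of the 45 pairs was 0.417, beside 0.020 over all 51597561 pairs of genes tested. An r above 0.5 was found in 40% of the member pairs and in 7.77% of all pairs. Within the water group the shares were 44.4% and 14%, and within the ethanol group 44.4% and 13.3%. Arrays, depth of hybridisation and normalisation are shared by every gene, as are the cell types sampled in each animal.

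All 15 pairs among Dlg3, Dlg4, Dlgap1, Dlgap3, Shank2 and Shank3 passed, with r from 0.623 to 0.901. This grouping of 6 genes was made after the values were seen. It holds members of each layer: 2 Dlg genes, 2 Dlgap genes and 2 Shank genes. So do the genes left out, Dlg1, Dlg2, Dlgap2 and Shank1, and the layers therefore do not set the grouping apart. The closest pair was Dlg3 and Shank2, with r = 0.901 (permutation p = 1e-05, the smallest that 100000 resamples can give; adjusted p = 0.00045) and Spearman's coefficient = 0.847 (permutation p = 1e-05). Without the 2 animals farthest from the median of Dlg3, r was 0.773, and without ethanol animal 1 it was 0.817. With the mean of all probe sets of each gene it was 0.575 (adjusted permutation p = 0.0484). Dlg3 and Dlgap3 followed with r = 0.830 (permutation p = 4e-05, adjusted p = 0.0006), Spearman's coefficient = 0.606 (permutation p = 0.00616) and r = 0.760 without the 2 farthest animals.

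Dlg4 and Shank3, the top and the deep layer of the network, had r = 0.794 (permutation p = 3e-05, adjusted p = 0.0006) and Spearman's coefficient = 0.788 (permutation p = 0.00016), with r = 0.799 without the 2 animals farthest from the median of Dlg4. The correlation was 0.747 in water and 0.863 in ethanol animals. It was 0.378 when all probe sets of Dlg4 were averaged in place of the main one, and 0.454 after the myelin score was subtracted as well. Dlgap1 and Dlgap3 had r = 0.805 (permutation p = 7e-05, adjusted p = 0.00067) and Spearman's coefficient = 0.583 (permutation p = 0.00789), with r = 0.714 without the 2 farthest animals. The adjusted p of the other pairs among the 6 genes ranged up to 0.0111, for Dlg4 and Dlgap3 (r = 0.623, Spearman's coefficient = 0.380). By Spearman's coefficient this pair did not pass (adjusted permutation p = 0.208). Nor did Dlgap1 with Shank2 (0.221), Shank3 (0.0612), Dlg3 (0.0502) or Dlg4 (0.0502).

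The plot of correlations by group shows each of the 45 pairs. The 15 correlations among the 6 genes ranged from 0.482 to 0.903 in water animals and from 0.637 to 0.976 in ethanol animals. Within the water animals 3 pairs passed an adjusted permutation p of 0.05 over 45 pairs, and within the ethanol animals 12; by Spearman's coefficient 1 passed in water and 2 in ethanol animals. The 3 in water were Dlgap1 and Shank1 (r = 0.964), Dlg3 and Dlgap3 (r = 0.903), and Dlg1 and Dlgap2 (r = 0.875). All 12 in ethanol animals were among the 6 genes, and the highest was Dlg3 and Shank2 (r = 0.976, adjusted permutation p = 0.00855). Without the 2 animals farthest from the median of the first gene, r of these 12 pairs ranged from 0.102 (Dlg3 and Dlgap1, from 0.805) to 0.865 (Dlg4 and Shank3, from 0.863). The number of pairs past the threshold says nothing of a difference between the groups, which was tested for each pair (Fisher z of r, group labels permuted over animals). Of the 45 differences, 0 passed after adjustment and 3 had an unadjusted permutation p under 0.05, all with an adjusted p of 0.604.

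**Figure D3:**
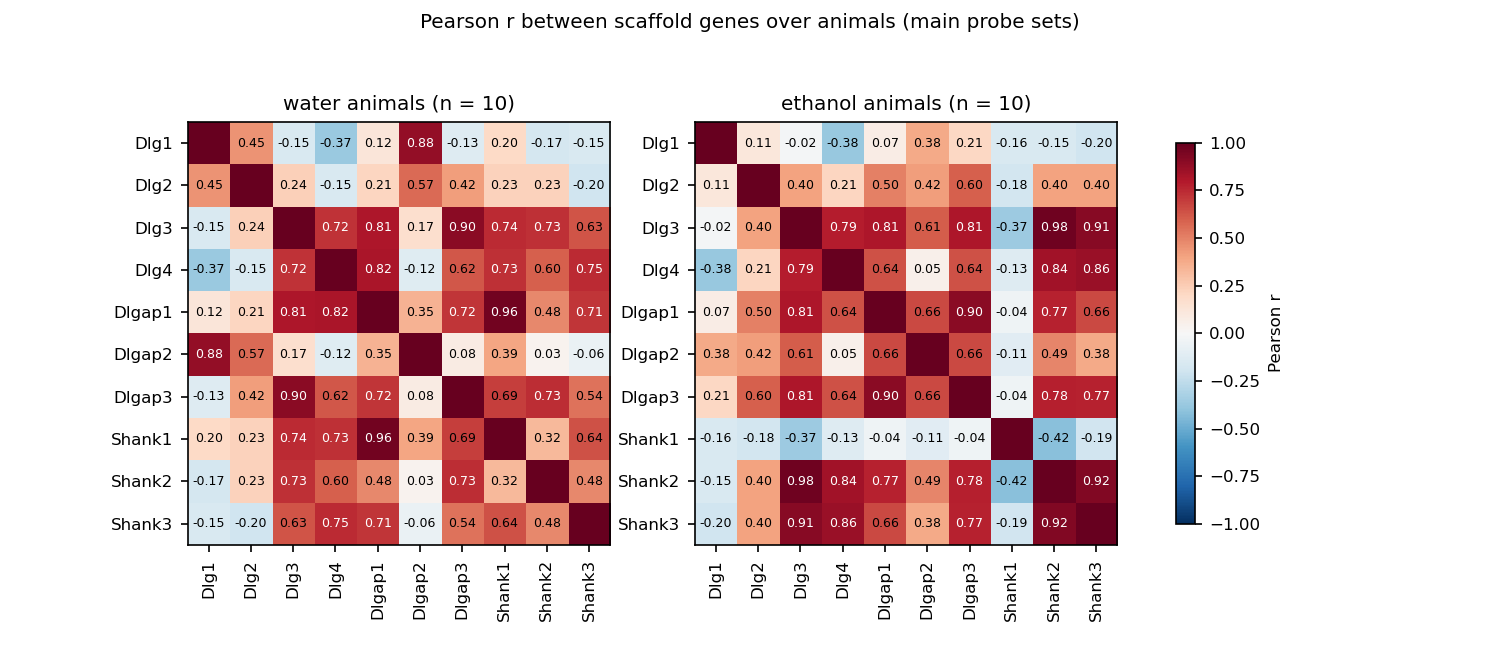
Pearson r between the main probe sets of the 10 scaffold genes, over the 10 water animals (left) and over the 10 ethanol animals (right); colour runs from -1 in blue to 1 in red. The pairs among Dlg3, Dlg4, Dlgap1, Dlgap3, Shank2 and Shank3 range from 0.48 to 0.90 on the left and from 0.64 to 0.98 on the right, and Shank1 with Dlgap1 stands at 0.96 and -0.04; 0 of the 45 differences passed after adjustment.

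The 3 pairs with an unadjusted p under 0.05 for the difference are drawn by animal. Dlgap1 and Shank1 had r = 0.964 in water animals (permutation p = 5e-05; Spearman's coefficient = 0.939, permutation p = 0.00023) and -0.043 in ethanol animals (permutation p = 0.905; Spearman's coefficient = -0.018), with an unadjusted permutation p of 0.0266 for the difference. In water animals r stayed between 0.950 and 0.983 with any 1 animal left out. In ethanol animals it moved from -0.694 without ethanol animal 3 to 0.481 without ethanol animal 1, so its value rested on single animals. Over all 20 residuals this pair had r = 0.656 (adjusted permutation p = 0.00649), and 0.826 without the 2 animals farthest from the median of Dlgap1. Dlg1 and Dlgap2, of which the latter was below the filter, had r = 0.875 in water and 0.381 in ethanol animals (unadjusted permutation p = 0.0342), and 0.694 over the 20 residuals (adjusted permutation p = 0.00474). Dlg3 and Shank2 went the other way, with 0.727 in water and 0.976 in ethanol animals (unadjusted permutation p = 0.0485).

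**Figure D4:**
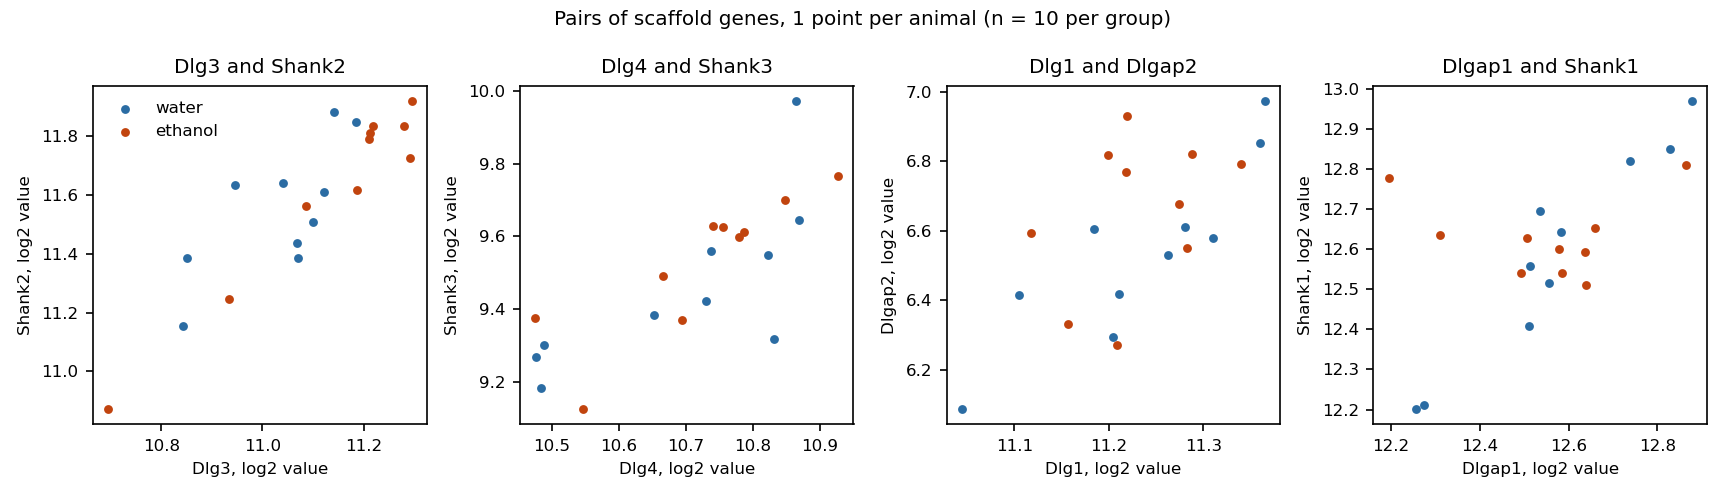
Log2 levels of 4 pairs of scaffold genes, 1 point per animal, water in blue and ethanol in orange (n = 10 per group), each axis being the level of the named gene. Points of Dlg3 and Shank2 (r = 0.901 after the group means were subtracted) and of Dlg4 and Shank3 (r = 0.794) lie along a rising band in both groups, while those of Dlgap1 and Shank1 do so in water animals (r = 0.964) and not in ethanol animals (r = -0.043). This ethanol value ran from -0.694 to 0.481 with 1 animal left out. The difference between the groups did not pass (adjusted permutation p = 0.604).

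Dlg2, Dlg1, Dlgap2 and Shank1 stood outside this grouping. Dlg2 passed with 0 of its 9 partners, with a median r of 0.328. Dlg1 passed with 1, Dlgap2, and its median r was 0.0098; its correlation with Dlg4 was -0.370 (adjusted permutation p = 0.229). Shank1 passed with 1, Dlgap1, with a median r of 0.639 in water and -0.155 in ethanol animals. By contrast Dlgap1 passed with 6 of its 9 partners, and Dlg3, Dlg4, Dlgap3, Shank2 and Shank3 with 5 each. Of the 17 pairs, 14 also passed without the 3 arrays that stand apart, 12 with the mean of all probe sets of a gene, 8 after the means of group and run were subtracted, and 4 after the group means and the myelin score were. The median r of the 15 pairs among the 6 genes was 0.738 with group means, 0.706 with group and run means, and 0.373 with the myelin score. With the mean of all probe sets 4 further pairs passed: Dlg1 and Dlg3 (r = 0.592, from -0.078; adjusted permutation p = 0.0254), Dlg2 and Dlgap1 (0.561, from 0.352), Dlg3 and Dlgap2, and Dlgap1 and Dlgap2. Which genes stand outside the 6 thus depended on the choice of probe sets.

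The animals' cell type markers moved with the scaffold genes. In all, 10 marker scores and the 3 prime to 5 prime ratio of control probe sets, a measure of RNA quality, were correlated with each gene over the 20 residuals, and 15 of the 110 relations passed an adjusted permutation p of 0.05. Of these, 6 were negative relations with the myelin score, the same 6 genes as above. Those genes were grouped by their correlations over the same residuals, so this match is not a separate result. Dlg4 had r = -0.792 (permutation p = 5e-05, adjusted p = 0.00275; Spearman's coefficient = -0.759, permutation p = 0.00017), with -0.803 without the 2 farthest animals, -0.826 in water and -0.788 in ethanol animals. Shank3 had r = -0.787 (permutation p = 5e-05, adjusted p = 0.00275; Spearman's coefficient = -0.770, permutation p = 0.00017), with -0.778 without the 2 farthest animals. Dlgap1 (r = -0.768), Dlg3 (-0.712), Shank2 (-0.679) and Dlgap3 (-0.645) completed the set. By Spearman's coefficient Dlgap3 did not pass (adjusted permutation p = 0.106). Without the arrays that stand apart, Dlg3 and Dlgap3 did not pass (adjusted permutation p = 0.0545 and 0.0706). An r below -0.5 with the myelin score was found for 7 of the 10 members and for 11.4% of all genes tested. Shank1 had r = -0.515 (adjusted permutation p = 0.0694) and Dlgap2 -0.244, while Dlg1 (0.041) and Dlg2 (-0.13) had r near 0.

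The myelin score itself ranged from 11.31 to 12.89 in ethanol animals and from 12.01 to 13.15 in water animals. Its mean was 12.27 ± 0.49 (SD, n = 10) in ethanol and 12.63 ± 0.39 (SD, n = 10) in water animals, and all 11 of its measured markers had a lower mean in ethanol animals, with 0 past the adjusted threshold of limma and 5 at an unadjusted p under 0.05. In a fit that also held the myelin score, the Dlg4 difference was -0.070, the Shank3 difference -0.068, the Shank2 difference -0.083, the Shank1 difference -0.042 and the Dlgap3 difference -0.011, where each was above 0 without it; none was called either way. The pan-neuronal score, over 13 of 13 markers, ranged from 12.31 to 12.68 in ethanol and from 12.09 to 12.52 in water animals. Its r with the 10 genes ran from -0.423 to 0.262, with 0 relations past an adjusted and 0 past an unadjusted permutation p of 0.05. Within the groups r was unlike: Dlg4 had -0.804 in ethanol and 0.062 in water animals, Dlg3 -0.793 and 0.167, and Shank2 -0.778 and 0.072. Shank1 was above 0 in both, at 0.463 and 0.220. These group differences were not tested. Without the arrays that stand apart, Dlg4 had r = -0.688 with this score (adjusted permutation p = 0.0335). Whether the share of white matter in the dissected tissue plays a part was not tested beyond these values.

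**Figure D5:**
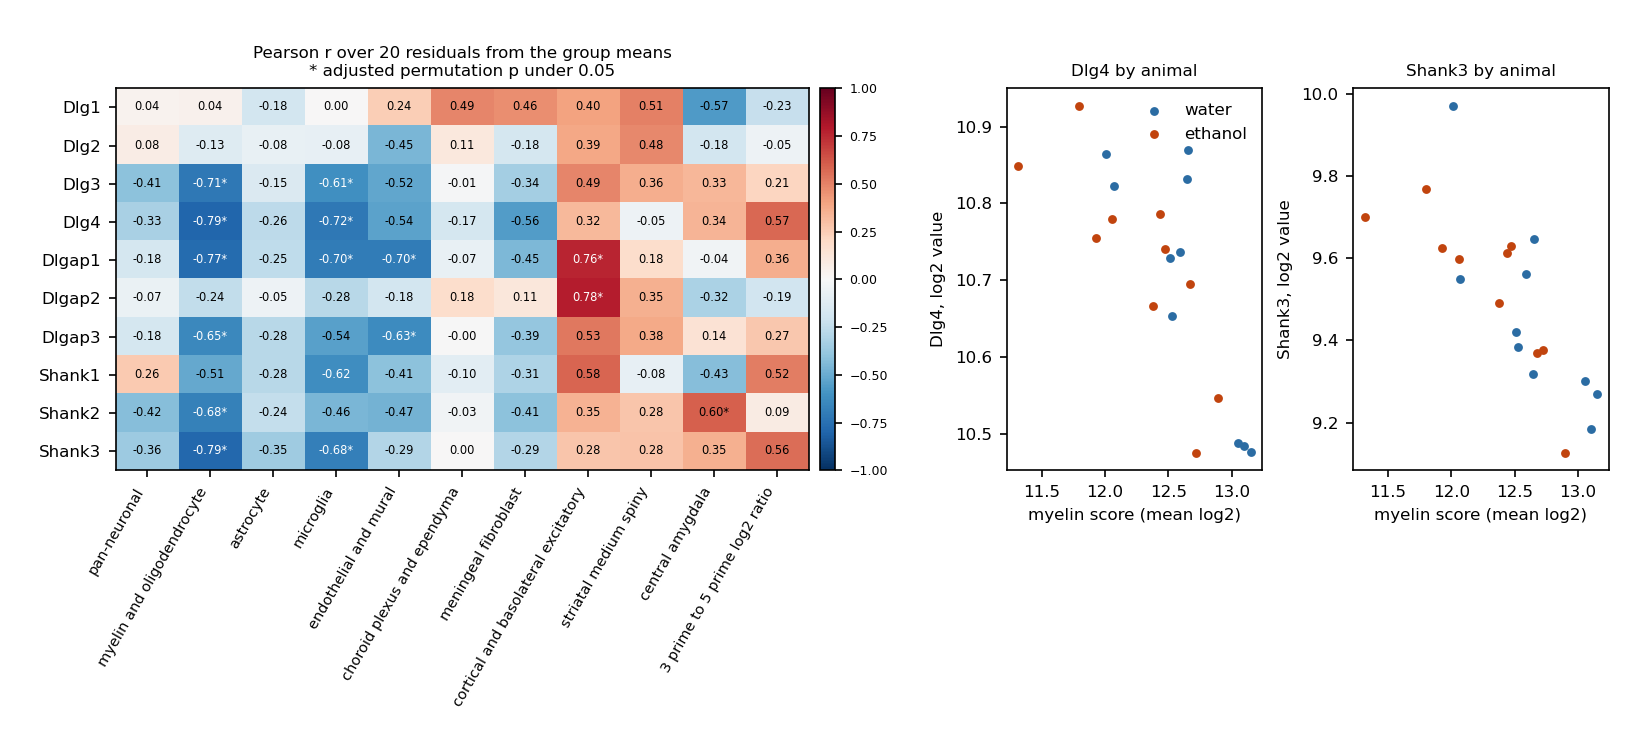
Left, Pearson r of each scaffold gene with each marker score and with the RNA quality ratio over 20 residuals from the group means, with an asterisk for an adjusted permutation p under 0.05; right, the log2 levels of Dlg4 and Shank3 (y axes) against the myelin score (x axis, mean log2 level of 11 markers), 1 point per animal. Both genes are lower where the myelin score is higher, with r = -0.792 and -0.787.

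The other relations that passed were with microglia (Dlg4 r = -0.716, Dlgap1 -0.700, Shank3 -0.684, Dlg3 -0.610), endothelial and mural cells (Dlgap1 -0.700, Dlgap3 -0.633), cortical and basolateral excitatory neurons (Dlgap2 0.781, Dlgap1 0.760) and central amygdala neurons (Shank2 0.597). Their adjusted permutation p ranged up to 0.0335. An r below the negative cut used for myelin was found for 6 of the 10 members with microglia, against 9.52% of all genes tested. With the endothelial and mural score it was 4 members, against 7.54%. An r above 0.5 was found for 4 members with the cortical score, against 4.77%. No member was past the cut the other way with these scores. For the central amygdala score 1 of 10 was above 0.5, near the 8.85% of all genes. A further 1 was below the negative cut, against 2.89%. The microglia score, over 8 of 8 markers, ranged from 9.20 to 9.36 in ethanol and from 9.14 to 9.43 in water animals. Dlgap2 had r = 0.903 with the cortical score in water and 0.615 in ethanol animals, and the score ranged over more than a log2 unit in both groups. The endothelial and mural score, over 8 measured markers of which Flt1 was below the filter, ranged from 8.51 to 8.73 and from 8.52 to 8.80. Relations with the RNA quality ratio reached 0.571 for Dlg4, and 0 of 10 passed the adjusted and 3 the unadjusted permutation p of 0.05. After the means of group and run were subtracted, 1 of the 110 relations passed, Dlgap2 with the cortical score (r = 0.839, adjusted permutation p = 0.0198). The 6 myelin relations then had r from -0.752 to -0.559, where they had -0.792 to -0.645 with group means alone, and adjusted permutation p from 0.0719 to 0.305. The 4 microglia relations had -0.590 to -0.328. With group means alone and without the arrays that stand apart, those 4 had adjusted permutation p from 0.05 to 0.138. Dlgap3 with the endothelial score then had 0.0545. By Spearman's coefficient neither endothelial relation passed (adjusted permutation p = 0.0556 and 0.192), nor did Dlgap1 with microglia (0.0577).

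The genes whose levels tracked each scaffold gene most closely were ranked over the 20 residuals among 10159 genes. For Dlg4 they were Plppr2 (r = 0.919), Cabin1 (0.914), Camsap1 (0.905), Smarcc2 (0.902) and Unkl (0.893). For Dlgap1 they were Fbxo41 (0.928), Celf1 (0.916), Phyhip (0.907), Nog (0.902) and Wnk2 (0.896). For Shank3 they were Shisa7 (0.905), Zdhhc18 (0.901), Ell (0.895), Cinp (0.890) and Dnajc2 (0.889). Shisa7 and Camsap1 are known, respectively, as a receptor auxiliary protein and a microtubule minus-end binding protein. The first gene for Shank2 was Tiam1 (0.961), a Rac exchange factor, and for Dlg3 it was Celf2 (0.915), an RNA-binding protein. For the others it was Frmd6 for Dlg1 (0.796), Extl1 for Dlg2 (0.785), Kitlg for Dlgap2 (0.911), Snph for Dlgap3 (0.884) and Pip5k1c for Shank1 (0.888). The ranks of the 6 covarying genes for each other ran from 8 (Shank2 for Dlg3) to 624 (Dlgap3 for Dlg4). The median of these 30 ranks was 219.5, so many genes outside the scaffold tracked a member more closely than another member did.

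Partner genes of the postsynaptic density, not all of them known to bind these scaffolds, were examined as 5 lists of 109 names. Of these, 95 were measured and 82 tested. None passed an adjusted p of 0.05 (limma). At an unadjusted p under 0.05, 7 were higher and 3 lower in ethanol animals, where 6.33% of all genes tested, with 1 probe set each, were higher and 5.77% lower. By sign alone, 66 differences were above 0 and 16 below, where 56.7% of all genes tested were above 0. The partners' median was 0.069 on the log2 scale beside 0.013 over all genes, and -0.0023 once the myelin score was in the fit. The pan-neuronal markers were also higher in ethanol animals by sign, 13 of 13, with 0 past the adjusted threshold and 4 at an unadjusted p under 0.05 (limma), and their score was 0.11 higher. Of the astrocyte markers 7 of 8 were lower, with 0 and 2, and their score, which ranged from 12.49 to 12.75 in ethanol and from 12.55 to 12.87 in water animals, gave -0.12. With the pan-neuronal score in the fit, the median was 0.065 for the partners and 0.10 for the 10 scaffold genes, and the part of the astrocyte markers was not tested.

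Among glutamate receptors and their auxiliary subunits, 14 of 14 tested differences were above 0, where 56.7% of all genes tested were. The sign did not hold in every run. In the last run Gria1 had -0.15, Grik2 -0.23 and Cnih2 -0.17, while Gria4 had 0.15 and Grin2a 0.13. The smallest p belonged to Cacng3, an AMPA receptor auxiliary subunit, with means of 8.86 ± 0.25 (SD, n = 10, ethanol) and 8.60 ± 0.27 (SD, n = 10, water; difference 0.27, limma adjusted p = 0.338). Shisa9 (0.19) and Gria3 (0.25) followed. Among adaptors, 21 of 27 were above 0. Homer3, of the family that binds Shank, had the smallest p of all partners, with means of 7.46 ± 0.077 (SD, n = 10, ethanol) and 7.66 ± 0.11 (SD, n = 10, water; difference -0.20, SE 0.046, limma adjusted p = 0.174). Lin7b, which forms a complex with Cask, had a difference of 0.20 and Cript, which binds the PDZ domain of PSD-95, one of 0.083.

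Among enzymes and small GTPase regulators, 13 of 20 differences were above 0. Fyn, a kinase of the Src family, had a difference of -0.18, Cdk5 one of 0.16 and Camk2b one of 0.14, with limma adjusted p from 0.284 to 0.331. Of the adhesion and trans-synaptic partners, 12 of 14 were above 0, led by Lgi1 (0.18), its receptor Adam22 (0.13) and Nlgn3 (0.12). Of the channels and other receptors that bind these PDZ domains, 6 of 7 were above 0, with Kcna4 at 0.18, Cacna1d at 0.13 and Kcna2 at 0.11. The inhibitory postsynaptic scaffold was set beside these: Gphn, which encodes gephyrin, had a difference of 0.14 (limma adjusted p = 0.230), Insyn1 one of 0.12 and Nlgn2 one of 0.077, so 3 of 3 were above 0 there too.

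Some scaffold genes and partners also rose and fell together over the 20 residuals, while other pairs had r below 0. Dlgap1 had a median r of 0.561 with the 14 receptor genes, of which 8 were above 0.5 against 11.2% of all genes, and its highest was Gria1 (0.778). Dlg3 (median 0.503) and Dlgap3 (0.533) had Grik5 as their highest receptor gene (0.835 and 0.757). Dlg4 and Shank3 had Cnih2, an AMPA receptor auxiliary subunit, as theirs (0.884 and 0.856). Dlg1 had a median r of -0.019 with the same genes and its highest was Gria3 (0.711). Medians were also low for Dlg4 (0.211), Dlg2 (0.190) and Dlgap2 (0.151). Of the 14 receptor genes, 5 had r above 0.5 with Dlg4 against 12.6% of all genes, and 3 with Dlg1 against 3.65%. Among the adaptors, Dlgap4, the remaining Dlgap gene of the list, was the highest for Dlg3 (0.890), Shank3 (0.881) and Dlgap1 (0.846), and Sipa1l1, a synaptic regulator of Rap signalling, for Shank2 (0.908). Agap2 was the highest of the enzymes for Dlg3 (0.887), Dlgap3 (0.868) and Dlgap1 (0.842), and Kalrn for Shank2 (0.866). Each partner named so far is the highest of its list, and other partners ran the other way. Among the lowest were Kcna1 for Dlg4 (-0.744), Sharpin for Dlgap1 (-0.730), Cdk5 for Shank1 (-0.708) and Fyn for Dlg3 (-0.562). These correlations are a description over 20 animals that share arrays and normalisation.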

How the data were processed

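Tissue RNA of 20 rats was hybridised to Affymetrix rat arrays after biotin labelling with the 3 prime IVT express kit, per the labels' protocols. The authors made log2 values, 1 per probe set and array, with RMA and deposited them, per the submitters' processing notes. For the RMA version and the authors' filters, nothing was given in the sources used here, and the log base was read from the range of the values, 3.82 to 16.16. Precision is limited by how many arrays there are.

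The table held 31099 probe sets, of which 57 were controls, 20826 had 1 gene symbol, 436 several and 9780 none. All 10 members matched a RefSeq symbol by Entrez identifier. Probe sets with a mean above the 40th percentile (log2 7.14) were kept, which left 18625. Ethanol minus water was fitted over all of these in R 4.3.3 with lmFit and eBayes of limma 3.58.1 and Benjamini-Hochberg adjustment. A member below the filter was fitted with all probe sets. Correlations used Python 3.11.15, numpy 2.4.6, pandas 2.3.3 and scipy 1.17.1, and figures matplotlib 3.10.9. Scripts were tested on simulated data. Each p-value sets a difference or a correlation against the variation between these animals alone.

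Groups came from the labels, and no animal number occurs in both. A marker score is the mean log2 level of its list in an array. The rule for named genes was every member, the partners past the threshold and the 3 with the smallest p per list, the 5 genes most like Dlg4, Dlgap1 and Shank3, the 1 gene most like each other member, and all pairs past the threshold. The members, lists and rules were chosen with earlier results of these data known. The difference between correlations, the fits without the arrays that stand apart and those with the microglia score were added after seeing the data. Alternatives covered the filter, scaling, weights, covariates, choice of probe set, run and each animal left out.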

Additional observations from a re-analysis of the deposited data

Results flagged for a closer look

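In 4 of the 48 sets of 10 values checked (24 probe sets in each group), the most extreme animal lay far from the rest of its group, by Dixon's criterion at 95%. Chance alone flags about 1 in 20 such sets. Ethanol animal 1 was the lowest in 3 of these: the Dlg3 probe sets 1387393_at, at 7.08 with the next animal at 7.46, and 1388280_a_at, at 7.03 with the next at 7.34, and the Dlg4 probe set 1387210_at, at 9.88 with the next at 10.18. Water animal 16 was the lowest for the Shank2 probe set 1369776_a_at, which was below the filter, at 6.01 with the next at 6.21.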

How the results depend on the processing

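No scaffold gene and no partner gene passed the adjusted threshold of limma under any alternative run. Over all probe sets, the 4 calls became 2 with the filter at the 60th percentile, 23 with array quality weights, 0 with the myelin score (2359 without adjustment), 1 with the pan-neuronal score, 1 with the cortical and striatal scores, and 1 to 8 with each animal left out (1 without water animal 14, 8 without water animal 20). The median member difference ranged from 0.034 to 0.099 with each animal left out. The 17 gene pairs became 8 with group and run means subtracted, 4 with the myelin score, 9 with the microglia score, and 17 to 19 with each animal left out. The 15 marker relations became 1 with run means, where the 6 with myelin kept r from -0.752 to -0.559. Of 141 single-gene values under other settings, 19 took the other sign and 0 were called. For Dlg1 they were 0.0044 (median centring), 0.0081 (array weights), 0.0006 (myelin), 0.0011 (without the arrays that stand apart), 0.053 (mean of probe sets) and 0.11 (second probe set). For Dlgap1 they were 0.014 (array weights), 0.018 (RNA quality ratio), 0.014 (pan-neuronal score) and 0.038 (mean of probe sets). Dlg4 gave -0.070 (myelin) and -0.0065 (microglia), Dlgap3 -0.011, Shank2 -0.083 and Shank3 -0.068 (all myelin), and Shank1 -0.042 (myelin), -0.0095 (pan-neuronal score), -0.018 (mean of probe sets) and -0.11 (second probe set). With each animal left out, Dlg1 ranged from -0.023 to 0.012, Dlgap1 from -0.055 to 0.019 and Shank1 from -0.0017 to 0.083. The cause of these moves was not tested. No paired analysis was possible because no animal number occurs in both groups. Low signal limits Dlgap2 and the other 6 probe sets below the filter.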
